A study of Mus musculus with 9 samples.

Results

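The genes described here are the nuclear-encoded subunits and assembly factors of mitochondrial complex I. They are the rows of the deposited count table whose Ensembl identifier maps, through GENCODE release M21, to a protein-coding symbol that starts with Nduf. The rule found 46 genes among 57180 rows, and 45 of them were among the 13405 genes with enough counts to be tested. By symbol, 36 were structural subunits, 8 were assembly factors (Ndufaf1 to Ndufaf8), and the last 2 were Ndufa4 and Ndufa4l2. A further 5 Nduf rows of other biotypes (Ndufb1-ps, Ndufab1-ps, Ndufb4c, Ndufs6b and Ndufa11b) were not members. All mice in the study carried Lgr5-EGFP-CreERT2 and floxed (f/f) Kansl1 alleles, the controls included. The 3 control libraries, labelled KANSL1-WT, came from mice given corn oil, and the 6 labelled KANSL1-KO came from mice given tamoxifen on each of 3 or 4 days (KO day 3 and KO day 4, 3 libraries each). Ages are not stated in the labels, and no label ties a replicate to an animal, so p-values measure only how far these samples spread, and that spread may be technical. The group names are those of the labels throughout. Knockout and tamoxifen went together, and the KO groups differed both in tamoxifen days and in time, so these cannot be told apart. The Lgr5 promoter drove both the GFP used to sort intestinal stem cells from the small intestine and the Cre that deletes Kansl1, the gene for a scaffold of the NSL histone acetyltransferase complex.

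Complex I, the NADH:ubiquinone oxidoreductase, is the entry point of electrons from NADH into the respiratory chain of the inner mitochondrial membrane. It is L-shaped: the N module at the tip of the matrix arm oxidises NADH, the Q module below it passes electrons to ubiquinone, and the membrane arm, with a proximal and a distal part, pumps protons. Core subunits carry the flavin and the iron-sulfur clusters, accessory subunits surround and stabilise them, mitochondrial DNA encodes the core of the membrane arm, and assembly factors help to build the complex without staying in it. Intestinal stem cells are known for a higher mitochondrial activity than the neighbouring Paneth cells.

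Kansl1 itself measured 4.46, 11.4 and 9.84 CPM in controls, 2.81, 2.99 and 2.55 at KO day 3 and 2.93, 5.09 and 8.96 at KO day 4. Levels are in CPM, counts scaled to a common library size, here with TMM factors, which set the bulk of genes equal between libraries. All KO day 3 libraries were below the controls, whereas KO day 4 replicate 2 and replicate 3 lay within the control range, above control replicate 1. The log2 fold changes were -1.62 ± 0.45 (standard error, SE) at KO day 3 and -0.63 ± 0.46 at KO day 4, and neither passed the edgeR threshold (adjusted p = 0.12 and 0.345). The counts cover whole genes, so reads outside the deleted part also enter. Libraries held 8400458 to 21484679 counts. Rows of the mitochondrial genome took 66.9 to 72.1% of the counts at KO day 4, against 16.4 to 25.8% (control) and 19.0 to 32.4% (KO day 3), which left 3101384 to 5585250 counts of nuclear genes in a KO day 4 library. The TMM factors, 0.40 to 0.50 at KO day 4 against 1.22 to 1.83 in the other groups, offset this, but not this alone. Computed without rows of the mitochondrial genome, TMM factors still differed: 0.808 to 0.855 at KO day 4, 0.966 to 1.062 at KO day 3 and 1.086 to 1.25 in controls. With library size alone and no such factors, the median log2 fold change of all tested genes was -1.95 at KO day 4 and -0.39 at KO day 3 instead of -0.06 and -0.02, and changes are given here relative to that shift. The stem cell markers Lgr5, Olfm4, Ascl2, Smoc2 and Slc12a2 were present in every group, and their summed level, as CPM of nuclear counts, was lowest at KO day 4 (2576 to 7220 CPM), against 12390 to 17760 (KO day 3) and 18260 to 22020 (control). Of the epithelial markers Epcam, Cdh1 and Krt8, 2 fell and 1 rose at KO day 4, with a sum of 2889 to 3174 CPM against 3881 to 4096 in controls. KO day 3 replicate 1 and KO day 4 replicate 3 stood apart from their groups: across the tested genes the Pearson correlation of log2 levels with the other libraries of the group was 0.937 to 0.941 and 0.897 to 0.903, against 0.975 to 0.980 among controls. Control replicate 1 also differed from the other controls in composition. Its Paneth cell markers summed to 37210 CPM of nuclear counts against 16430 and 15770, and its mitochondrial share was 25.8% against 16.4 and 17.8%. It was the highest control in 24 of 36 structural subunits.

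In control stem cells the structural subunits were expressed above the assembly factors. Per kilobase of merged exon, the median of the 36 structural subunits was 38.3 CPM per kilobase, and the median of the 8 assembly factors was 6.21, from 3.08 to 28.9. Among the highest were Ndufa2 at 148 ± 34.4 CPM per kilobase (SD, n = 3), Ndufc2 at 145 ± 8.62 and Ndufa8 at 130 ± 8.61, and the ranges of these neighbours overlapped. At the low end stood Ndufb4 at 1.75 ± 0.415, Ndufaf4 at 3.08 ± 0.487 and Ndufab1 at 3.29 ± 0.291 CPM per kilobase. Reads of Ndufb4 and Ndufab1 may be split with the copies Ndufb4c and Ndufab1-ps. In controls these copies measured 10.2 and 32.5 CPM, beside 3.34 for Ndufb4 and 22.6 for Ndufab1, and the effect on the order was not tested. Of the 44 pairs of neighbours in this order, 35 overlapped in the range of their 3 libraries. Ndufaf8 was the only assembly factor in the upper 34 of the order, at 28.9 ± 7.75 CPM per kilobase. With the length of the longest transcript instead, the medians were 56.5 and 8.34.

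**Figure D1:**
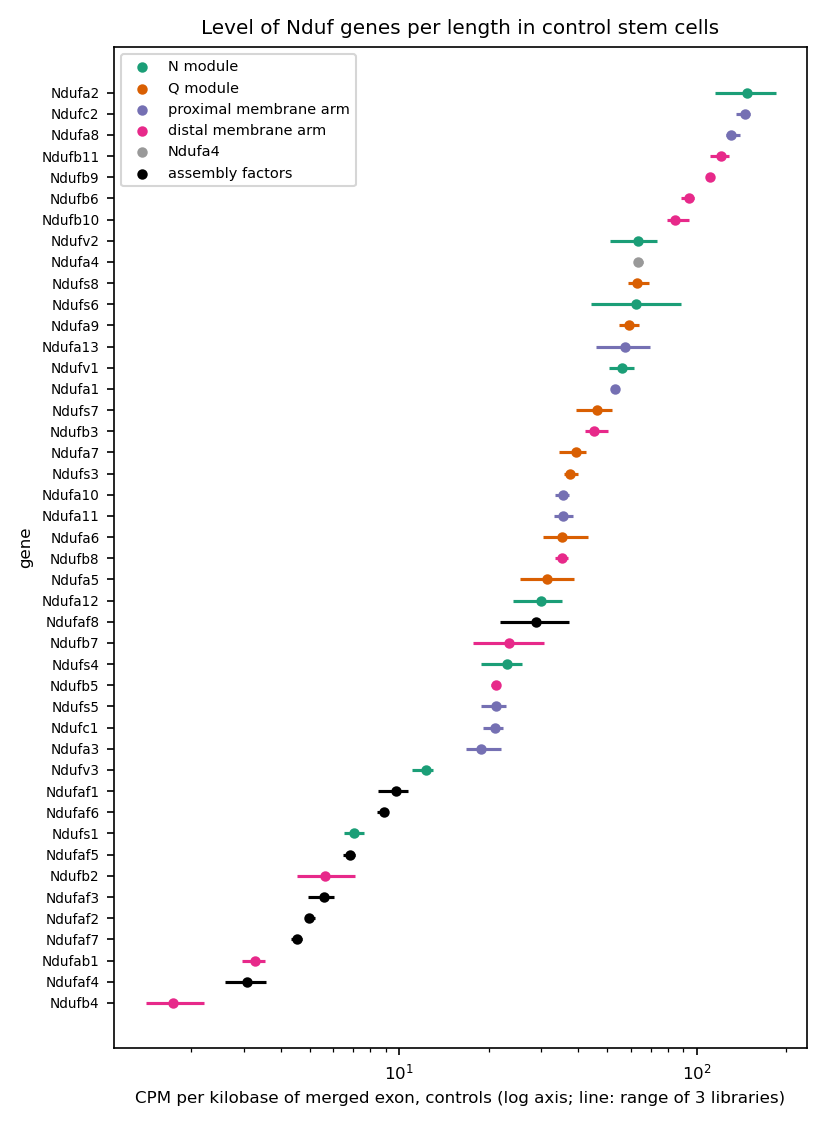
Level of 44 of the 45 tested Nduf genes in the 3 control libraries, in CPM per kilobase of merged exon on a log axis; points are means, lines span the 3 libraries and colours mark the module. Ndufa2, Ndufc2 and Ndufa8 are at the high end, and the assembly factors other than Ndufaf8 fill the low end together with Ndufs1, Ndufb2, Ndufab1 and Ndufb4.

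At KO day 4, 13 of the 45 tested members (28.9%) were lower than in controls by edgeR's quasi-likelihood test with an adjusted p under 0.05, against a background of 11.5% of all tested genes. No member was higher at that threshold, against a background of 11.1%. At KO day 3 no member passed it. The summed level of the structural subunits was 2867 ± 202.5 CPM in controls (SD, n = 3), 3233 ± 663.6 at KO day 3 and 2010 ± 153.3 at KO day 4. By library it was 3061, 2884 and 2657 in controls, 3967, 3055 and 2676 at KO day 3, and 2154, 2028 and 1849 at KO day 4. Every KO day 4 library thus lay below every control, while KO day 3 overlapped the controls and its replicate 1 was the highest of all 9. The summed assembly factors measured 121, 108.5 and 114.9 CPM in controls, 127.6, 101.3 and 101.1 at KO day 3, and 83.8, 87.1 and 65.6 at KO day 4, again with all KO day 4 libraries below all controls. The ratio of the KO day 4 mean to the control mean was 0.701 for the structural subunits and 0.687 for the assembly factors, and it was 0.495 and 0.485 when levels were expressed as CPM of the counts of nuclear genes. At KO day 3 the ratios were 1.13 and 0.959, and 0.963 and 0.82 on the scale of nuclear counts. On that scale the summed assembly factors at KO day 3, 184.4 to 221.5, lay below all controls, 236.2 to 257.3. In bulk RNA, fewer cells of a type and less RNA per cell cannot be told apart.

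**Figure D2:**
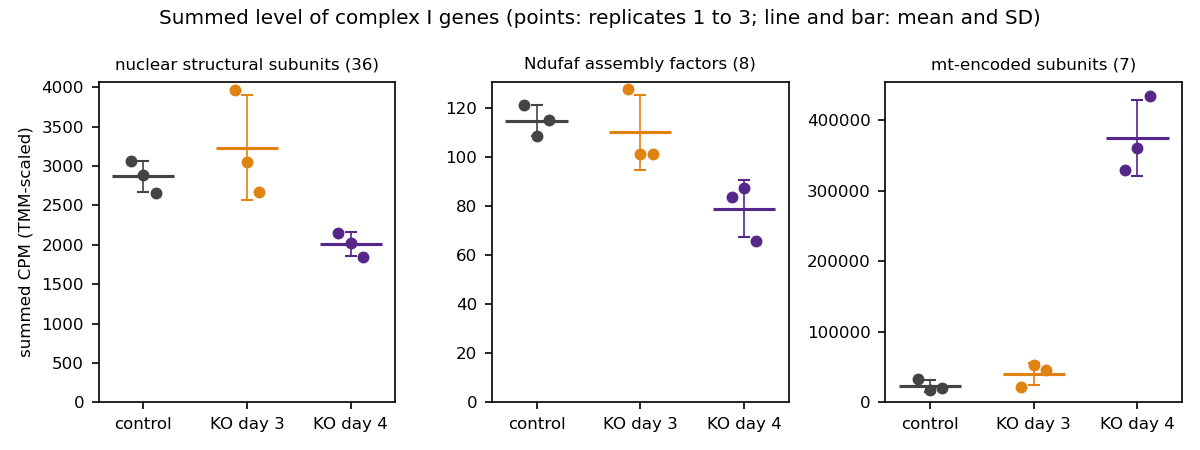
Summed level, in CPM of TMM-scaled library size, of the 36 structural subunits, the 8 Ndufaf assembly factors and the 7 subunits encoded by mitochondrial DNA in each library, with group mean and SD. The nuclear sums are lowest at KO day 4 (2010 ± 153.3 and 78.9 ± 11.6), where the sum of the mitochondrial subunits is highest (374700 ± 53940).

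Gene by gene, beside the 13 lower members in edgeR at KO day 4, an unadjusted p under 0.05 was reached by 21 lower members and 1 higher one (background 19.3% and 17.2%). DESeq2 called 1 higher member (Ndufaf4) while limma voom called none. In 28 members every KO day 4 library was below every control (background 26.4%), and in 2, Ndufab1 and Ndufaf4, every one was above (background 20.6%). The median log2 fold change was -0.52 over the structural subunits and -0.73 over the assembly factors, beside -0.06 over all tested genes. Of the structural subunits 32 of 36 had a negative fold change, and 11 passed the test, while 2 of 8 assembly factors did. The count of 13 ranged from 6, without control replicate 1, to 19, without KO day 3 replicate 1, when single libraries were left out, and was 7 without control replicate 2, 8 without control replicate 3, 7 without KO day 4 replicate 2 and 21 without both libraries that stood apart. Ndufa7, Ndufa9, Ndufb3 and Ndufaf7 were among the members called under all 19 alternatives run.

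Markers of several cell types moved in the same comparison, where 11.5% of all tested genes were lower and 11.1% higher. At KO day 4, 4 of 5 stem cell markers fell and 5 of 5 Paneth markers rose. The Paneth sum was 91880 to 114500 CPM of nuclear counts, against 15770 to 37210 (control) and 24530 to 39640 (KO day 3). All 5 mast cell markers rose, to a sum of 411.6 to 1145, against 0.101 to 0.379 (control, with Fcer1a and Ms4a2 at 0) and 19.1 to 180.2 (KO day 3, where 4 of 5 were already called higher). Of the tuft, goblet and enteroendocrine markers 4 of 5 each rose. The tuft sum was 108.5 to 293.7 against 6.70 to 7.73 (control) and 11.4 to 22.3 (KO day 3), the goblet sum 2858 to 4785 against 1281 to 1766 and 1453 to 1859, and the enteroendocrine sum 223.8 to 391.1 against 24.3 to 97.2 and 62.9 to 133.5. Of 5 enterocyte markers 1 rose and 1 fell, with a sum of 30.3 to 52.6 against 40.6 to 75.8 (control) and 28.9 to 97.5 (KO day 3). The 4 other immune markers that could be tested rose, to 54.3 to 150.9 against 1.41 to 4.55 (control) and 5.99 to 35.5 (KO day 3), with Cd3e and Cd79a at 0 in controls and at KO day 4. Of 5 stromal markers only Vim could be tested, and it rose, while Pdgfra was at 0 in every library. The list summed to 27.0 to 48.4 against 1.91 to 5.68 (control) and 6.23 to 13.2 (KO day 3), and most of this sum was Vim. Its counts over the libraries of a group were 124 (control), 300 (KO day 3) and 401 (KO day 4). In the same order they were 22, 2 and 7 for Col1a1, 5, 5 and 3 for Col1a2, and 9, 51 and 4 for Dcn. The 3 red blood cell markers were at 0 at KO day 4, and their sum did not pass 1.59 elsewhere. The part of these cell types, and of the mitochondrial share, in the lower Nduf levels was not tested.

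**Figure D3:**
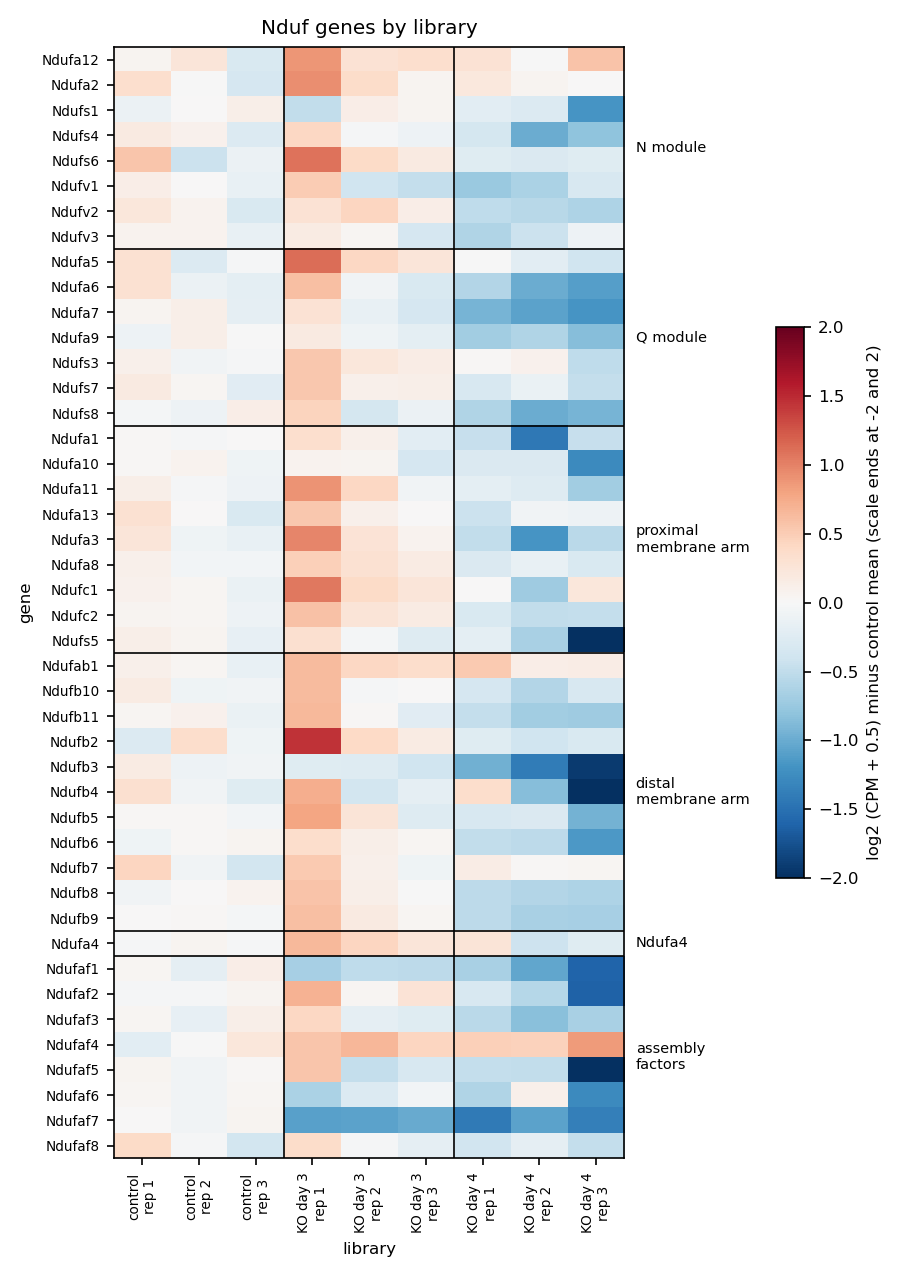
Level of 44 of the 45 tested Nduf genes in each of 9 libraries, as log2 (CPM + 0.5) minus the control mean, in a colour scale that ends at -2 and 2, with genes ordered by module. KO day 4 is mostly blue, the column of KO day 3 replicate 1 is red for most structural subunits, and Ndufaf7 is blue in all 6 KO libraries.

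The N module, where NADH is oxidised, had 2 of its 8 subunits lower at KO day 4, Ndufs4 and Ndufv2, and a median log2 fold change of -0.44. Ndufv1, which binds NADH and the flavin, measured 162, 148 and 134 CPM in controls, 209, 112 and 106 at KO day 3 and 87.8, 94.6 and 118 at KO day 4. Its KO day 4 libraries were all below the controls, and its log2 fold change of -0.57 ± 0.25 missed the edgeR threshold (adjusted p = 0.12). The partner subunit Ndufv2, which holds an iron-sulfur cluster, measured 158, 141 and 109.6 CPM in controls, 164, 181 and 148 at KO day 3 and 94.2, 91.7 and 87.8 at KO day 4. All KO day 4 libraries were below all others, and the log2 fold change at KO day 4 of -0.58 ± 0.16 passed (edgeR adjusted p = 0.0271). Ndufs1, the largest core subunit of the module, measured 52.6, 57 and 61.5 CPM in controls, 40.4, 62.5 and 59.3 at KO day 3 and 48.99, 47.2 and 24.9 at KO day 4. KO day 4 was below the controls, mainly through its replicate 3, and the log2 fold change was -0.49 ± 0.25 (edgeR adjusted p = 0.183). Ndufs4, an accessory subunit added late and known as a site of Leigh syndrome mutations, fell from 62.2 ± 9.91 to 37.96 ± 9.02 CPM (log2 fold change -0.71 ± 0.22, edgeR adjusted p = 0.0378). At the other end of the module was Ndufa12, an accessory subunit that binds late at the junction of the N and Q modules, with 0.28 ± 0.22 (edgeR adjusted p = 0.381). The calls of Ndufs4 and Ndufv2 ended in 5 and 4 of the 9 fits that left out a library (controls 1 and 2, KO day 4 replicates 2 and 3, and for Ndufs4 also KO day 3 replicate 2; edgeR adjusted p 0.0569 to 0.122), and Ndufv1 was called without KO day 3 replicate 1 (0.017). The other 3 accessory subunits, Ndufs6, Ndufv3 and Ndufa2, had log2 fold changes of -0.32, -0.38 and 0.07, none past the threshold.

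The Q module, which hands electrons to ubiquinone, had the highest share of called members: 5 of 8 were lower at KO day 4, all 8 had negative fold changes, and the median was -0.78. No test of the difference between modules was run. Ndufs8, a core subunit with iron-sulfur clusters, measured 79.4, 75.6 and 89.5 CPM in controls, 111, 63.9 and 74.9 at KO day 3 and 53.2, 40.5 and 42.3 at KO day 4. Its KO day 4 libraries were below all others (log2 fold change -0.84 ± 0.21, edgeR adjusted p = 0.0165), a call that ended when control replicate 3 or KO day 4 replicate 2 was left out (0.0589 and 0.058). The core subunits Ndufs3 and Ndufs7 did not pass the test, although Ndufs7 carries the last cluster before ubiquinone. Ndufs3 measured 87.1, 77.8 and 79.8 CPM in controls, 119, 95.4 and 90.7 at KO day 3 and 82.5, 86.5 and 57.3 at KO day 4, with KO day 4 replicates 1 and 2 within the control range and replicate 3 below it (log2 fold change -0.11 ± 0.18, edgeR adjusted p = 0.699). Ndufs7 measured 88.9, 81.3 and 67.5 CPM in controls, 114, 84.4 and 85.4 at KO day 3 and 62.7, 71.5 and 56.4 at KO day 4, and 1 KO day 4 library lay above the lowest control (log2 fold change -0.32 ± 0.18, edgeR adjusted p = 0.222).

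Among the accessory subunits of the Q module, Ndufa7 measured 74.5, 77.6 and 62.9 CPM in controls, 87.7, 64.6 and 56.6 at KO day 3 and 37.04, 33.9 and 31.4 at KO day 4. All KO day 4 libraries were below all others, at 0.476-fold of the control level (log2 fold change -1.07 ± 0.19, edgeR adjusted p = 0.0032). Ndufa6, a member of the LYR family that binds the mitochondrial acyl carrier protein, measured 77.6, 57.8 and 54.6 CPM in controls, 94.8, 59.7 and 50.8 at KO day 3 and 41.5, 31.2 and 28.9 at KO day 4. The KO day 4 libraries were again the lowest, and KO day 3 replicate 1 the highest (log2 fold change at KO day 4 -0.90 ± 0.25, edgeR adjusted p = 0.0269). The call of Ndufa6 ended when control replicate 1 or 2 or KO day 4 replicate 2 or 3 was left out (edgeR adjusted p 0.055 to 0.102). Ndufa9, which stabilises the junction of the matrix and membrane arms, fell from 124 ± 9.88 to 75.5 ± 6.64 CPM (log2 fold change -0.71 ± 0.15, edgeR adjusted p = 0.00782). Ndufa5 was at 32.5 ± 6.85 and 27.8 ± 3.80 CPM, with groups that overlapped.

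In the proximal membrane arm no subunit of 9 passed the test at KO day 4, although all 9 had negative fold changes (median -0.43) and in 7 of them every KO day 4 library was below the controls. At an unadjusted p under 0.05, 4 were lower in edgeR. DESeq2 called none, limma voom called 3, and edgeR without both libraries that stood apart called 3. The lowest value belonged to Ndufs5, an intermembrane-space subunit, at 19.6, 18.8 and 16.2 CPM in controls and 15.7, 11.4 and 3.13 at KO day 4. Replicate 3 set the spread there, and the log2 fold change was -0.82 ± 0.41 (edgeR adjusted p = 0.174). Ndufc1 was nearest to no difference at -0.12 ± 0.27. The closest to the threshold were Ndufc2 at -0.42 ± 0.15 and the X-linked Ndufa1 at -0.74 ± 0.27 (edgeR adjusted p = 0.0685 and 0.0721). The remaining 5, Ndufa3, Ndufa8, Ndufa10, Ndufa11 and Ndufa13, ranged from -0.74 in Ndufa3 to -0.21 in Ndufa13, which is also known as GRIM-19.

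Of the 11 distal membrane arm genes, 4 fell at KO day 4: Ndufb3, Ndufb6, Ndufb8 and Ndufb9. Ndufb3, a small accessory subunit, had the largest fall of all members. It measured 38.5, 32.1 and 32.7 CPM in controls, 28.9, 28.5 and 25.9 at KO day 3 and 17.4, 12.7 and 8.73 at KO day 4. Every KO day 4 library was below every KO day 3 library, and these were below every control. The KO day 4 level was 0.380-fold of control (log2 fold change -1.40 ± 0.24, edgeR adjusted p = 0.00262). Ndufb6, Ndufb8 and the LYR protein Ndufb9 fell by less, with log2 fold changes of -0.69, -0.58 and -0.61 (edgeR adjusted p = 0.024, 0.0296 and 0.0216). These 3 calls ended without any single control and, for Ndufb8, without any single KO day 4 library, and for Ndufb9 without KO day 4 replicate 2 (edgeR adjusted p 0.0508 to 0.0877). The X-linked Ndufb11 just missed the threshold at -0.63 ± 0.21 (edgeR adjusted p = 0.053). Ndufb2, Ndufb4, Ndufb5, Ndufb7 and Ndufb10 ranged from -0.58 to 0.03 and none passed, Ndufb4 with as few as 2 reads in a library. Ndufab1, the mitochondrial acyl carrier protein, which also serves lipoic acid and iron-sulfur cluster synthesis, shared the highest fold change of a structural gene at KO day 4 with Ndufa12. It measured 24.3, 23.2 and 20.4 CPM in controls, 35.4, 30.1 and 28.9 at KO day 3 and 32.7, 24.8 and 25.1 at KO day 4. All 6 KO libraries were above the controls, and neither fold change passed the edgeR threshold (log2 0.47 ± 0.18 at KO day 3, adjusted p = 0.24; 0.28 ± 0.19 at KO day 4, adjusted p = 0.296). Scaled by library size alone, without TMM factors, its fold change at KO day 4 was -1.59.

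Ndufa4, named as a complex I gene but now assigned to cytochrome c oxidase, measured 85.8, 91.2 and 85.7 CPM in controls, 138, 118 and 103 at KO day 3 and 105, 65.7 and 73.9 at KO day 4. KO day 3 was above the controls and KO day 4 lay on both sides of them (log2 fold change at KO day 4 -0.10 ± 0.19, edgeR adjusted p = 0.737). Its relative Ndufa4l2, known as a hypoxia-induced gene, had 0 counts in all 9 libraries and was not tested. A count of 0 allows up to 3 counts, or 0.0991 to 0.672 CPM depending on the library, and this limit covers counting error only.

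**Figure D4:**
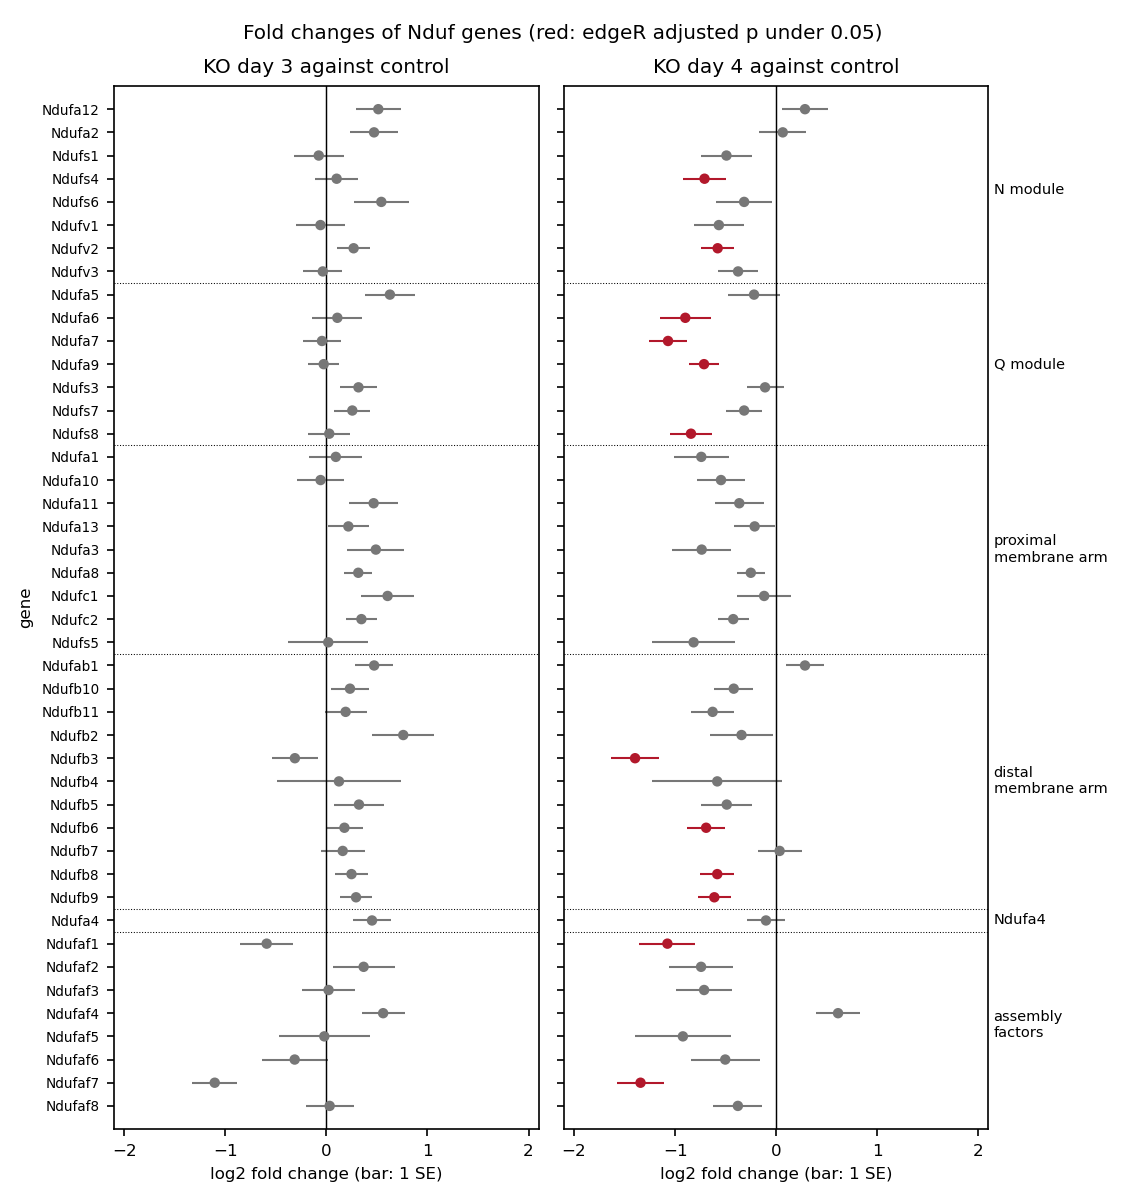
Log2 fold change of 44 of the 45 tested Nduf genes at KO day 3 and KO day 4 against control, with 1 SE, by module; red marks an edgeR adjusted p under 0.05. No gene is red at KO day 3, and 12 of the genes drawn, all below 0, are red at KO day 4.

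The assembly factors differed among themselves. Ndufaf7 and Ndufaf1 fell at KO day 4, 7 of 8 had negative fold changes, and Ndufaf4 lay above the controls in all 6 KO libraries without passing the test. Ndufaf7, an arginine methyltransferase that acts early in assembly, measured 15.9, 15.1 and 16.5 CPM in controls, 7.16, 7.33 and 7.62 at KO day 3 and 5.63, 7.31 and 5.82 at KO day 4. All 6 KO libraries were below 8 CPM and all controls above 15. The log2 fold change was -1.10 ± 0.22 at KO day 3 (edgeR adjusted p = 0.0624) and -1.34 ± 0.23 at KO day 4 (edgeR adjusted p = 0.00284), and -0.24 ± 0.23 between the KO times (edgeR adjusted p = 0.528). It was the member with the smallest p at KO day 3, where the call depended on the settings: adjusted p ranged from 2.6e-05 (DESeq2) to 0.265 (without control replicate 2).

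Ndufaf1, which helps to join parts of the membrane arm together with Ecsit, Acad9 and Tmem126b, measured 15.02, 12.8 and 16.03 CPM in controls, 9.04, 10.1 and 9.96 at KO day 3 and 9.14, 6.84 and 4.48 at KO day 4. The controls were the highest in every case, the KO groups overlapped slightly, and the log2 fold change went from -0.59 ± 0.27 at KO day 3 (edgeR adjusted p = 0.306) to -1.08 ± 0.28 at KO day 4 (edgeR adjusted p = 0.0182; 0.0602 and 0.0706 without control replicate 1 and 3). Ndufaf4, which acts with Ndufaf3 on early Q-module intermediates, measured 10.2, 11.9 and 13.97 CPM in controls, 17.8, 19.2 and 16.2 at KO day 3 and 16.8, 16.5 and 21.9 at KO day 4. All KO libraries were above all controls, by 0.56 ± 0.21 and 0.61 ± 0.22 on the log2 scale, and neither passed in edgeR (adjusted p = 0.231 and 0.0654). By library size alone its fold change at KO day 4 was -1.31. Its partner Ndufaf3 measured 10.4, 8.96 and 11 CPM in controls, 13.6, 8.89 and 8.44 at KO day 3 and 6.80, 5.41 and 6.27 at KO day 4. There KO day 4 was below the controls (log2 fold change -0.71 ± 0.28, edgeR adjusted p = 0.0857; 0.0464 without KO day 3 replicate 1).

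Ndufaf2, a late factor that is a relative of Ndufa12, measured 14.6, 14.5 and 15.5 CPM in controls, 24.5, 15.3 and 18.01 at KO day 3 and 11.8, 9.86 and 4.48 at KO day 4. KO day 4 was below both other groups (log2 fold change against control -0.74 ± 0.32, edgeR adjusted p = 0.116). Ndufaf5, a hydroxylase that modifies Ndufs7, measured 12.7, 11.6 and 12.4 CPM in controls, 18.2, 8.63 and 9.64 at KO day 3 and 8.67, 8.59 and 1.57 at KO day 4. KO day 4 replicate 3 was far under the others, and the log2 fold change of -0.92 ± 0.47 did not pass (edgeR adjusted p = 0.184). Ndufaf8, which stabilises Ndufaf5, measured 30.98, 23.2 and 18.1 CPM in controls, 30.4, 23.1 and 20.7 at KO day 3 and 17.9, 20.8 and 16.8 at KO day 4, with groups that overlapped. Ndufaf6, an early factor, measured 11.3, 10.4 and 11.3 CPM in controls, 6.91, 8.97 and 10.6 at KO day 3 and 7.03, 11.8 and 4.25 at KO day 4, with KO day 4 replicate 2 above all controls and replicate 3 the lowest. The log2 fold changes of Ndufaf8 and Ndufaf6 at KO day 4 were -0.38 ± 0.24 and -0.50 ± 0.34 (edgeR adjusted p = 0.282 and 0.306).

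**Figure D5:**
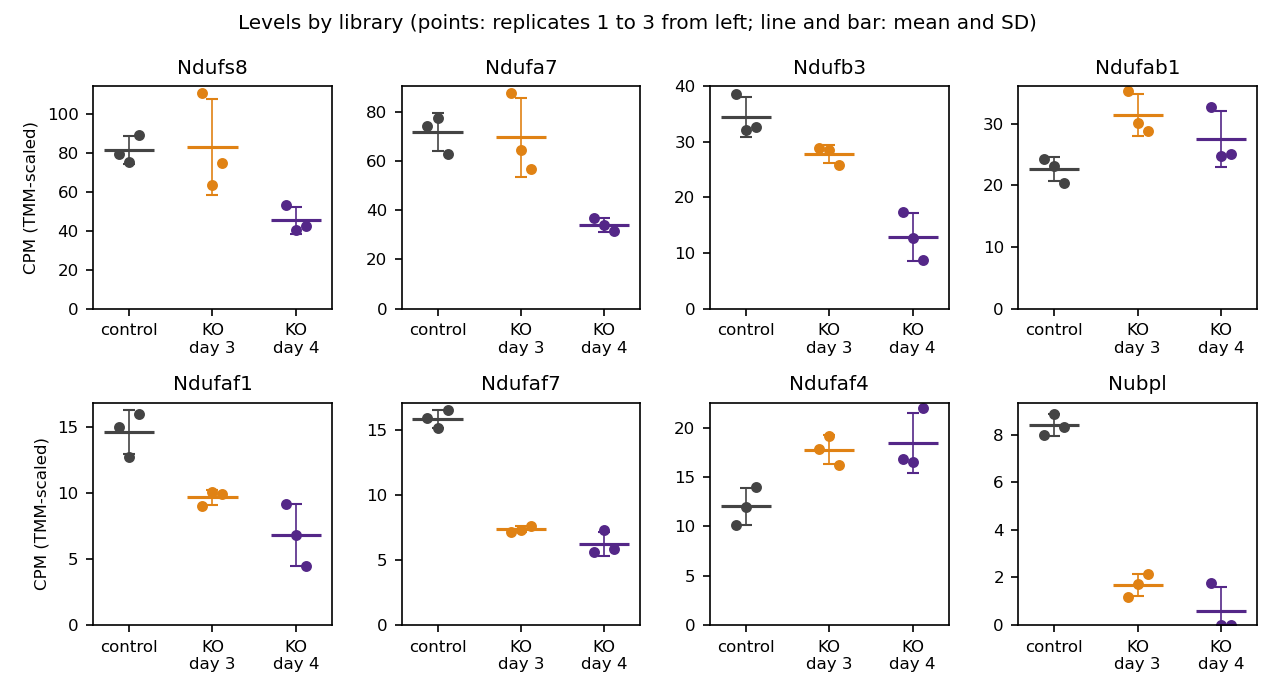
Level per library, in CPM of TMM-scaled library size, of Ndufs8, Ndufa7, Ndufb3, Ndufab1, Ndufaf1, Ndufaf7, Ndufaf4 and the cluster carrier Nubpl, with group mean and SD; every axis starts at 0. Ndufaf7 and Nubpl are low at both KO times, Ndufs8, Ndufa7 and Ndufb3 are lowest at KO day 4, and Ndufab1 and Ndufaf4 are above the controls in all 6 KO libraries.

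Upstream sequences are given of 3 members with large falls at KO day 4 (Ndufaf7, Ndufb3 and Ndufaf1). Also given are those of Ndufa6, the called member with GCATGCGC before its start, and of Ndufaf4, the assembly factor on the other side. They were chosen after their values and letters were seen. That of Ndufa7 is not given, since only 9 bases of it lie outside transcripts. They are RefSeq sequences of build GRCm38.p6, where 40 of the 46 members had a promoter. Capitals mark GCATGCGC, the core of the site of nuclear respiratory factor 1 (NRF1), and CCGGAA, the short core of the ETS family, on either strand. Bases that an annotated transcript covers are left out.
Ndufaf7 (chr17:78937067-78937134, plus strand): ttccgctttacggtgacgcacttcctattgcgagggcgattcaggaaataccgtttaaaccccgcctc
Ndufb3 (chr1:58586324-58586383, plus strand): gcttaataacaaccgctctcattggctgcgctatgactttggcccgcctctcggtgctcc
Ndufaf1 (chr2:119662835-119663084, minus strand): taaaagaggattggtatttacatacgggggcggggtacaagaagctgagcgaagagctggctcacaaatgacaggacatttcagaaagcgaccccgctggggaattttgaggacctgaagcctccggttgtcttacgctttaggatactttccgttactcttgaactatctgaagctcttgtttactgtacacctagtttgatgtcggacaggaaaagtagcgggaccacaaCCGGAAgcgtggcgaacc
Ndufa6 (chr15:82354323-82354541, minus strand): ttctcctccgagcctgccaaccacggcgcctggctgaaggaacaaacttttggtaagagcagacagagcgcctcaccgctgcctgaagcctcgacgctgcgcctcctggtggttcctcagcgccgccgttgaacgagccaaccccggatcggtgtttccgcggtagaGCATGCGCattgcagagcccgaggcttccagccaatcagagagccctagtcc
Ndufaf4 (chr4:24897833-24898082, plus strand): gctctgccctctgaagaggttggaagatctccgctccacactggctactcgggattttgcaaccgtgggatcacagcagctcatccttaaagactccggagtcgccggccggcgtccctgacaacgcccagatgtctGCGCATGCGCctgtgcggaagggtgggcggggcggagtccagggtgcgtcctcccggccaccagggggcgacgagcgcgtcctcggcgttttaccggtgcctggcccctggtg
The first sequence is the gap between the transcripts of Ndufaf7 and those of Cebpz, the gene of a ribosome biogenesis factor that is read in the other direction and starts 70 bases away in GENCODE M21. Cebpz measured 24.4, 25.5 and 23.6 CPM in controls, 34.02, 33.03 and 33.1 at KO day 3 and 32.5, 34.2 and 40.5 at KO day 4. It rose at KO day 4 (log2 fold change 0.54 ± 0.16, edgeR adjusted p = 0.0347), the same comparison in which Ndufaf7 fell, and was called higher in 11 of 19 alternatives, while by library size alone it was at -1.37. The gap before Ndufb3 is likewise short, since Fam126b starts 61 bases away. Ndufaf1 holds no NRF1 core and 1 short ETS core in its whole window of 250 bases, Ndufa6 holds 1 NRF1 core and Ndufaf4 holds 2 that overlap on opposite strands.

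Within 250 bases before the start, the NRF1 core was found in 4 of 40 member promoters (Ndufa6, Ndufa8, Ndufa11 and Ndufaf4), in 5.09% of the promoters of tested genes and in 2.56% of all 27025 promoters. The ETS-family core CCGGAAGT, the site type bound by GABP, was in none of the 40, in 7.04% of tested genes and in 3.23% of all. Its shorter form CCGGAA was in 10 of 40 (25.0%), 26.2% and 13.6%, and every match of the longer form is also one of the shorter. The YY1 core AAGATGGC was in none of the 40, in 2.52% of tested genes and in 1.83% of all. Of the 11 members lower at KO day 4 with a promoter, 1 held the NRF1 core and 3 the short ETS core, and of the 29 others 3 and 7 did. All motifs were searched on both strands as exact letters, a match is only a description, and no match says only that these letters are not in this window. A protein-coding gene starts head to head within 1000 bases of 21 members.

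At KO day 3 no member passed the edgeR threshold in either direction, where 0.142% of all tested genes were higher and 0.298% lower. At an unadjusted p under 0.05, 9 members were higher (background 7.55%) and 2 lower (background 8.29%). DESeq2 called 1 lower member (Ndufaf7), and limma voom called Ndufaf7 lower and Ndufaf4 higher. The structural subunits had a median log2 fold change of 0.23, with 28 of 36 above 0, the assembly factors 0.00, and all tested genes -0.02. Every KO day 3 library was above every control in 9 members (background 12.1%) and below in 4, among them Ndufb3, Ndufaf1 and Ndufaf7 (background 18%). The highest fold changes were those of Ndufb2 (0.76 ± 0.30), Ndufa5 (0.63 ± 0.25) and Ndufc1 (0.61 ± 0.27). KO day 3 replicate 1 was the highest of its group in 38 of 45 members, and without it the median of the structural subunits was 0.05. That of the assembly factors was then -0.19.

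Between the KO times, 19 of 45 members were lower at KO day 4 than at KO day 3 by edgeR's quasi-likelihood test (42.2%, background 6.03%) and none was higher (background 6.52%), also in DESeq2 and limma voom and at an unadjusted edgeR p under 0.05 (background 14.7%). All 36 structural subunits had negative fold changes, 18 of them passed, and in 26 every KO day 4 library was below every KO day 3 library. Over all members that was so in 28, against a background of 17% of tested genes. The median log2 fold change was -0.81 for the structural subunits and -0.45 for the assembly factors, of which Ndufaf2 alone passed. Calls fell on 2 N-module, 5 Q-module, 4 proximal and 7 distal subunits.

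The largest falls between the KO times were those of Ndufa3, Ndufaf2, Ndufb2, Ndufb3, Ndufa7 and Ndufa6. Ndufa3, an accessory subunit of the proximal arm, measured 22.6, 17.9 and 17.1 CPM in controls, 38.03, 23.2 and 19.96 at KO day 3 and 13.5, 8.11 and 12.99 at KO day 4. The KO day 4 libraries were below all others, and the log2 fold change from KO day 3 was -1.23 ± 0.29 (edgeR adjusted p = 0.0233). Ndufb2, of the distal arm, measured 25.6, 40.05 and 29.5 CPM in controls, 85.4, 41.1 and 35.1 at KO day 3 and 26.4, 23.5 and 25.1 at KO day 4. KO day 3 replicate 1 stood above all other libraries, the KO day 4 libraries overlapped the controls, and the log2 fold change from KO day 3 was -1.10 ± 0.31 (edgeR adjusted p = 0.0418). Ndufaf2, Ndufb3, Ndufa7 and Ndufa6 fell by 1.11, 1.08, 1.03 and 1.01 on the log2 scale. Ndufaf4, at 0.05 ± 0.22, was the only member with a positive fold change, and by library size alone it was at -1.48. Without KO day 3 replicate 1 the count of 19 was 10 and the structural median -0.56, without KO day 3 replicate 2 it was 9, without KO day 4 replicate 2 it was 8 and without KO day 4 replicate 3 it was 10. It was 6 when only the 2 KO groups were fitted. The calls of Ndufa11, Ndufb10, Ndufb2 and Ndufaf2 each ended in 8 of the 9 fits that left out a library, while those of Ndufa7, Ndufb8, Ndufb9, Ndufc2 and Ndufv2 held under all 19 alternatives. This comparison and that of KO day 4 with control share the KO day 4 libraries.

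Other assembly factors of complex I, outside the Nduf names, were given by a list of 13 names, of which Coa1 matched no symbol and the other 12 were tested. At KO day 4, 4 of 12 were lower (Nubpl, Tmem126b, Foxred1 and Aifm1) and none was higher in edgeR, DESeq2 or limma voom, or at an unadjusted edgeR p under 0.05. Over all tested genes 11.5% were lower and 11.1% higher in edgeR, and 17.2% were higher at an unadjusted p under 0.05. Nubpl, which delivers iron-sulfur clusters to complex I, measured 7.997, 8.89 and 8.31 CPM in controls, 1.19, 1.73 and 2.13 at KO day 3 and 1.76, 0 and 0 at KO day 4. All KO libraries were below all controls, and KO day 4 replicates 2 and 3 had no count, which allows up to 0.477 and 0.672 CPM. The log2 fold change was -3.59 ± 0.85 at KO day 4 (edgeR adjusted p = 0.0124; called in all 18 alternatives that tested it) and -2.29 ± 0.73 at KO day 3 (edgeR adjusted p = 0.16; called in 6 of 18). Tmem126b, a partner of Ndufaf1, measured 8.54, 11.1 and 8.85 CPM in controls, 5.37, 7.80 and 4.64 at KO day 3 and 3.52, 3.02 and 1.79 at KO day 4. KO day 4 was below all other libraries (log2 fold change -1.74 ± 0.36, edgeR adjusted p = 0.00641). Foxred1, which acts in the middle and late steps of assembly, and Aifm1, which takes part in the import of assembly proteins, had -1.004 ± 0.25 and -0.75 ± 0.21 (edgeR adjusted p = 0.0152 and 0.0282), called in 17 and 15 of 19 alternatives. At KO day 3 no gene of the list was called in edgeR, 2 were lower at an unadjusted p under 0.05, and DESeq2 and limma voom called 1 each.

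Among 12 tested genes that make or pass on iron-sulfur clusters, 3 were lower at KO day 4, Nfs1, Hscb and, again, Nubpl, and none was higher in edgeR, at an unadjusted p under 0.05, in DESeq2 or in limma voom. Over all tested genes the edgeR shares were 11.5% lower and 11.1% higher. Nfs1, the cysteine desulfurase that supplies the sulfur, measured 36.1, 34.9 and 36.5 CPM in controls, 17.99, 24.2 and 24.8 at KO day 3 and 14.2, 12.4 and 15.9 at KO day 4. Hscb, a cochaperone that passes clusters on, measured 18.4, 19.3 and 14.4 CPM in controls, 7.33, 10.9 and 5.92 at KO day 3 and 4.22, 4.93 and 3.58 at KO day 4. In both genes the KO day 4 libraries were the lowest and the controls the highest. Their log2 fold changes at KO day 4 were -1.34 ± 0.20 and -2.02 ± 0.30 (edgeR adjusted p = 0.00136 and 0.00147), called under all 19 alternatives. The median of the list at KO day 4 was -0.38.

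The 7 complex I subunits encoded by mitochondrial DNA went the other way. All 7 rose at KO day 4 (median log2 fold change 4.07), with a summed level of 33570, 18020 and 20010 CPM in controls, 22350, 52660 and 46340 at KO day 3 and 329200, 360700 and 434300 at KO day 4. The KO day 4 libraries were all above the others. The TMM factors below 1 at KO day 4 raise these CPM, so the sums are not shares of a library's counts. The size of the rise depended on the settings. Over the 18 alternatives that tested them, the log2 fold change at KO day 4 was 2.205 to 4.455 for mt-Nd1 and 1.262 to 3.452 for mt-Nd3. Both were called higher in all 18. The smallest p values were those of mt-Nd3, mt-Nd1 and mt-Nd6, with log2 fold changes of 3.13 ± 0.28, 4.07 ± 0.42 and 4.96 ± 0.54 (edgeR adjusted p = 0.000174, 0.000274 and 0.000353). At KO day 3 all 7 were above 0 with a median of 0.68, and none passed in edgeR. DESeq2 called 2 and limma voom 3, and 3 had an unadjusted p under 0.05. Nuclear copies of mitochondrial DNA can share reads with these rows.

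The nuclear subunits of the other respiratory complexes were counted in the same fit. At KO day 4, 2 of 4 complex II genes, 2 of 9 of complex III, 4 of 10 of complex IV and none of 15 of complex V were lower, with medians of -0.47, -0.41, -0.51 and -0.21, beside 13 of 45 Nduf genes. The background for these and the ribosomal lists below was 11.5% of all tested genes lower and 11.1% higher. In complex V, 1 gene was higher and 1 lower at an unadjusted p under 0.05, DESeq2 called none and limma voom called 1 higher. Sdhc and Sdhb of complex II fell by 0.48 and 0.55 on the log2 scale, and Uqcrc1 and Uqcrc2 of complex III fell by 0.61 and 0.56. Cox6a1, Cox4i1 and Cox7b of complex IV fell by 0.996, 0.94 and 0.63, whereas Atp5b, the catalytic subunit of complex V and the highest of that list, measured 1253 ± 119 and 1050 ± 74.03 CPM in controls and at KO day 4 (edgeR adjusted p = 0.25). Of 78 mitochondrial ribosomal protein genes 19 were lower (median -0.40), led by Mrps33, Mrpl44 and Mrpl38 at -1.49, -1.14 and -0.69. Of 79 cytosolic ribosomal protein genes, many of which have near-identical pseudogenes, 2 were higher and 1 lower (median 0.01), and these were Rps13, Rpl11 and Rpl39 at 1.98, 1.02 and -0.67. By library size alone 77 of these 79 were lower, with a median of -1.85, beside -1.946 over all tested genes. DESeq2 called 9 of them higher and limma voom 10, for which no share of all tested genes called by the same method is given. No test compared the lists with each other.

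Of 10 regulators of mitochondrial genes, 1 fell and 1 rose at KO day 4, beside 11.5% and 11.1% of all tested genes. Tfam, which packages and transcribes mitochondrial DNA, measured 73.3, 80 and 70.01 CPM in controls, 66.8, 70.8 and 68.1 at KO day 3 and 57.3, 37.05 and 39.4 at KO day 4. All KO day 4 libraries were below all others (log2 fold change -0.73 ± 0.18, edgeR adjusted p = 0.0147), as in 17 of 19 alternatives. Pprc1, a coactivator related to PGC-1, was 12.8 ± 3.08 CPM in controls and 22.2 ± 1.96 at KO day 4 (log2 fold change 0.80 ± 0.23, edgeR adjusted p = 0.0278), called in 13 of 19 alternatives, and it was at -1.11 by library size alone. Nrf1, the factor whose core site is counted above, was at 0.74 ± 0.32 (edgeR adjusted p = 0.12), and the ETS factor Gabpa at 0.27 ± 0.48 (edgeR adjusted p = 0.728).

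Some member values are uncertain in themselves. Exons of 19 members overlap an exon of another gene, and no source used here states whether the counting used strand, so reads of such pairs cannot be told apart. The overlap covers 65.6% of the exon length of Ndufaf2 (with the lincRNA B230220B15Rik), 39.0% of Ndufb6 (with Smim27), 30.0% of Ndufa13 (with Tssk6) and 19.5% of Ndufb9 (with Gm49356). Ndufb9 lies on the same strand as Gm49356, as do Ndufb8 and Gm20538, and Ndufb2 and Gm42420, so counting by strand could not separate these pairs either. Ndufb3, Ndufa7, Ndufaf1 and Ndufaf7 overlap no other exon. The Nduf rows of other biotypes carry the names of copies of Ndufab1, Ndufb4, Ndufs6 and Ndufa11, and reads of these genes may be split with them. The copy Ndufab1-ps, at 32.5 ± 1.64 CPM in controls and 33.7 ± 9.71 at KO day 4, was counted above Ndufab1 itself (22.6 ± 2.005 and 27.5 ± 4.48).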

How the data were processed

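RNA-seq of Lgr5-GFP+ cells sorted from the small intestine gave 9 libraries in 3 groups of 3. The deposited table holds whole-number read counts per Ensembl gene. Per the submitters' processing notes, the authors used HISAT2 2.0.4 and the mouse build GRCm38 to make these counts. How and against which annotation reads were counted, and whether with strand, is not given in the sources used here. A further 6 columns of the table are empty and were not used. Through GENCODE M21, 51933 of 57180 rows received a symbol, and rows without one held 0.125 to 0.59% of a library's counts.

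Genes that passed edgeR's filterByExpr (minimum count 10, minimum total 15) were fitted with TMM factors and the quasi-likelihood test, all 9 libraries in 1 fit, with Benjamini-Hochberg adjustment over 13405 genes and a threshold of 0.05 (R 4.3.3, edgeR 4.0.16). DESeq2 1.42.0, limma 3.58.1 (voom with sample quality weights) and other scalings, filters, sets of samples and a replicate block were alternatives. Called higher or lower means past that threshold. All backgrounds given are those of edgeR. Counts called by DESeq2 or limma voom have no background of their own beside them, so they cannot be set against the share of all genes. CPM are counts scaled to the TMM-scaled library size. Replicates differed by more than sampling noise (the chi-square over genes was 13.1 to 93.5 for each degree of freedom), so each counted as 1 sample. The labels do not say what the replicate numbers share, so the main fit used no block. Deviations from the group means were correlated only between libraries of the same number, which cannot decide whether the numbers pair them. The fit was tested on simulated data for KO day 4 against control. It called most of the changes put in that were larger than that of any member in this comparison. Of the smaller changes put in it called few or none. Far fewer genes were changed there than were called in the data, which makes the adjustment stricter, so this outcome does not carry over directly to the members. A member that did not pass may still differ. Exon overlaps and neighbouring starts come from GENCODE M21, promoters from the RefSeq tables of GRCm38.p6.

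The members, modules, lists and alternatives were chosen with earlier results of these data known. Values per library are given for the core subunits (those of 1 member are not reported here), the Ndufaf genes, Ndufab1, Ndufa4 and, per comparison, up to 6 members with the largest called change each way or, where none was called, the 2 with the smallest p. From each other list up to 3 called genes with the smallest p, or the most abundant gene, are named. Aifm1, Nrf1, Gabpa, Ndufab1-ps and the neighbours of members were chosen after their values were seen. Scaling without rows of the mitochondrial genome, for levels, was added after seeing the data.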

Additional observations from a re-analysis of the deposited data

Results flagged for a closer look

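In 19 Nduf genes the difference from control was not the same at the KO times, by edgeR's test of KO day 4 against KO day 3 in the fit of all 9 libraries, and 18 of them are given here. In each of them the KO day 4 libraries were all below the KO day 3 libraries. In the N module the log2 difference was -0.81 for Ndufs4 and -0.85 for Ndufv2. In the Q module it was -1.008 for Ndufa6, -1.027 for Ndufa7, -0.689 for Ndufa9 and -0.872 for Ndufs8. In the proximal membrane arm it was -0.833 for Ndufa11, -1.227 for Ndufa3, -0.567 for Ndufa8 and -0.772 for Ndufc2. In the distal arm it was -0.653 for Ndufb10, -0.82 for Ndufb11, -1.103 for Ndufb2, -1.085 for Ndufb3, -0.872 for Ndufb6, -0.831 for Ndufb8 and -0.906 for Ndufb9. Ndufaf2, at -1.112, was the assembly factor among them. Days of tamoxifen and time differ together between these groups, so these differences cannot be assigned to the knockout. KO day 3 replicate 1 was the highest library of its group in 33 of 36 structural subunits, and KO day 4 replicate 3 the lowest of its group in 21 of 36. The count of 19 was 10 without either of them, 9 without KO day 3 replicate 2 and 8 without KO day 4 replicate 2, and the part of single libraries in these differences was not tested further.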

How the results depend on the processing

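The number of Nduf genes called and the class medians were recomputed under each alternative. Of the alternative values that answer a comparison, 198 kept their size, while 12 counts were higher and 10 lower by over 1.5 times (or no longer 0), and 8 medians moved by more than the spread between replicates. The 198 include counts of 0 that stayed 0, which say little about stability. The spread was the SD over the libraries of the KO group, which at KO day 3 includes the replicate that stood apart. With library size alone, which leaves out the TMM factors, 1 member was lower at KO day 3 with a structural median of -0.117. The same setting gave 45 lower members at KO day 4, with medians of -2.367 (structural) and -2.597 (assembly). It gave 45 for KO day 4 against KO day 3, with -2.32 and -1.955. The median of all tested genes under it was -0.39 at KO day 3, -1.946 at KO day 4 and -1.535 between the KO times. These counts thus include a shift of the bulk of genes. Library size alone also reversed Ndufab1 (-1.587) and Ndufaf4 (-1.31) at KO day 4 and Ndufaf4 between the KO times (-1.484). At KO day 3, 1 member (Ndufaf7) was also lower with a minimum mean CPM of 5, DESeq2, limma voom, a fit of the 2 groups alone, and without both libraries that stood apart (KO day 3 replicate 1 and KO day 4 replicate 3). There was 1 higher member at KO day 3 with limma voom (Ndufaf4), and 1 at KO day 4 with DESeq2 (Ndufaf4). Without both libraries that stood apart, 21 members were lower at KO day 4 and 10 between the KO times, where the structural median was -0.473. That median was -0.573 with limma voom, and a fit of the KO groups alone called 6. Leaving out single libraries gave 0 to 1 lower members at KO day 3, 6 to 19 at KO day 4 and 8 to 21 between the KO times, where the structural median ranged from -0.919 to -0.559. Over all genes it gave 0 to 251 lower and 0 to 94 higher genes at KO day 3, 741 to 1926 and 847 to 1913 at KO day 4, and 295 to 893 and 353 to 909 between the KO times. Beyond what these constructions change (scaling, genes or samples fitted), the cause was not tested.

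With the replicate number as a block, 0 members were lower at KO day 3, 15 at KO day 4 and 22 between the KO times, with structural medians of 0.216, -0.54 and -0.796. The correlation of deviations between libraries of the same number was -0.06 to 0.178. Libraries of different numbers were not compared in this way, so these values cannot decide whether the numbers pair the libraries. Depth limits the low members: Ndufb4 had 2 reads and Ndufs5 14 reads in KO day 4 replicate 3.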
